A study of Mus musculus with 6 samples.

Results

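Mitochondrial ribosomal proteins are the nuclear-encoded proteins of the ribosome that works inside mitochondria. They were taken as every gene of the B16F10 expression table whose symbol is Mrpl or Mrps followed by a number and at most 1 letter, which gave 78 of 27179 genes. By symbol, 49 belong to the large subunit (Mrpl) and 29 to the small subunit (Mrps). B16F10 is an established mouse melanoma line, labelled wild type, and was kept in DMEM with 10% fetal bovine serum. For the RNA-seq, 3 cultures received 0.01% olive oil (OLO) and 3 received 0.01% ozonated olive oil (OZO), each for 6 h. The value used for each gene is the authors' mean log2 CPM over all 6 libraries of both treatments, where CPM is the reads of a gene in a library scaled to 1000000 reads. Values of single cultures were not analysed here, so OZO is not compared with OLO, and no level below has a replicate error or a test. A difference between 2 genes is therefore a description of 1 mean against another, and neighbours in any order below cannot be told apart beyond their spread, which is unknown. In bulk RNA, a lower mean can come from fewer cells or from less RNA per cell, and these cannot be told apart.

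The mitochondrial ribosome translates the few messages that mitochondrial DNA encodes, all of them for subunits of the respiratory chain and ATP synthase. Its rRNAs are made inside the organelle, while every protein of it is encoded in the nucleus, made in the cytosol and imported. Compared with the bacterial ribosome it descends from, it has shorter rRNA and more protein, so its proteins fall into those with a bacterial counterpart and those found only in mitochondria. The large subunit forms peptide bonds and holds the exit tunnel, and the small subunit reads the message.

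The 6025 genes without reads share the lowest mean, -5.30 log2 CPM, from which a geometric mean of the scaled library sizes of 19641945 reads follows, so that 1 CPM corresponds to 19.6 reads per library. The melanocyte lineage genes Mitf, Pmel, Dct, Tyrp1, Tyr, Mlana and Sox10 had between 6.76 and 12.78 log2 CPM. Among 6 markers of other cells, Ptprc, Cd3e, Epcam, Alb and Krt5 lay under 1 CPM, with Krt5 at 0 reads, and Pecam1 had 0.28 log2 CPM. These markers did not go against the label of the line.

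All 78 genes had reads. Of these, 62 had at least 16 CPM, 15 had between 1 and 16 CPM, and 1, Mrpl36, was under 1 CPM. The most common range was 32 to 64 CPM, with 31 genes, and 11 genes had at least 64 CPM. The quartiles of the 78 levels were 4.50 and 5.52 log2 CPM around a median of 5.10 log2 CPM, so that the third quartile was 2.02 times the first on the CPM scale. All genes with reads had a median of 1.45 log2 CPM with quartiles of -3.21 and 5.29 log2 CPM, and 77 of the 78 genes lay above that median. The 77 genes other than Mrpl36 ran from 5.52 CPM (Mrpl52, about 108 reads per library) to 107 CPM (Mrpl13, about 2100 reads per library), a 19.4-fold range. The genes lie on 17 chromosomes, with 11 on chromosome 11 and 8 on chromosome 17, and so form no single cluster.

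Longer transcripts give more reads, so levels of different genes were compared per kb of exon, taken over all annotated exons of a gene. On that scale the 78 genes had a median of 3.62 log2 CPM per kb and quartiles of 2.91 and 4.33 log2 CPM per kb. The coding length is that of the longest annotated coding sequence of a gene. It runs from 261 bp (Mrps21) to 1326 bp (Mrps30), a narrow range beside that of all exons, 607 bp (Mrpl34) to 8631 bp (Mrps35). The interquartile range of the 78 levels was 1.42 log2 per kb of exon, 1.32 log2 per kb of coding length and 1.01 log2 without division by length. Values per kb of RefSeq-paired exons (exons of transcripts that GENCODE pairs with a RefSeq transcript) are given beside many, but not all, of the orders below that they change.

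**Figure D1:**
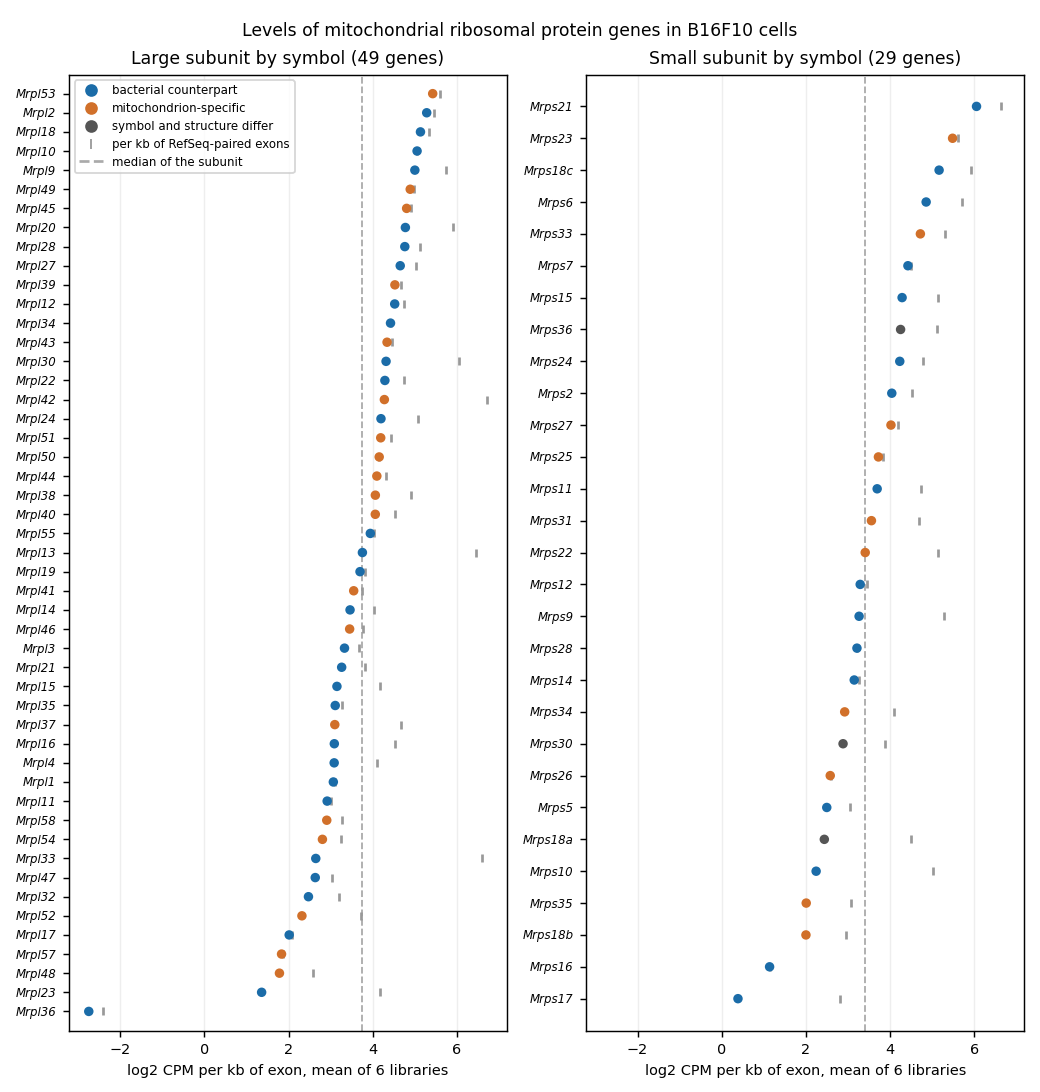
Levels of the 49 large subunit genes (left) and 29 small subunit genes (right), as log2 CPM per kb of all annotated exons (points) and of RefSeq-paired exons (ticks), each a mean of 6 libraries without an error bar. Dashed lines are the subunit medians, 3.75 and 3.41 log2 CPM per kb of exon, and Mrpl36 at -2.74 stands apart at the bottom of the large subunit.

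The order of the subunit medians depended on the length used. Per kb of exon, the 49 large subunit genes had a median of 3.75 log2 CPM per kb with quartiles of 3.06 and 4.42, and the 29 small subunit genes a median of 3.41 log2 CPM per kb with quartiles of 2.58 and 4.25. The interquartile ranges within the subunits were 1.36 and 1.67 log2. The difference of the medians, 0.35 log2, turned to -0.08 log2 per kb of RefSeq-paired exons and to -0.03 log2 when the level was not divided by length, where the medians were 5.08 and 5.11 log2 CPM. At least 16 CPM was reached by 39 of the 49 large and 23 of the 29 small subunit genes.

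Symbols do not always match the place of a protein in the structure. Mrps30 and Mrps18a sit in the large subunit, and Mrps36 is a subunit of the alpha-ketoglutarate dehydrogenase complex rather than a core ribosomal protein. Sorted by structure, 51 genes belong to the large and 26 to the small subunit, and the difference of the medians was 0.22 log2 per kb of exon. This order turned too. The large and small medians were 4.42 and 4.51 log2 CPM per kb of RefSeq-paired exons. Without division by length they were 5.08 and 5.16 log2 CPM. Mrps30 had 2.88 log2 CPM per kb of exon, Mrps18a 2.44 and Mrps36 4.25. Per kb of RefSeq-paired exons, Mrps18a (4.50 log2 CPM per kb) was above Mrps30 (3.89), with Mrps36 (5.11) still the highest.

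**Figure D2:**
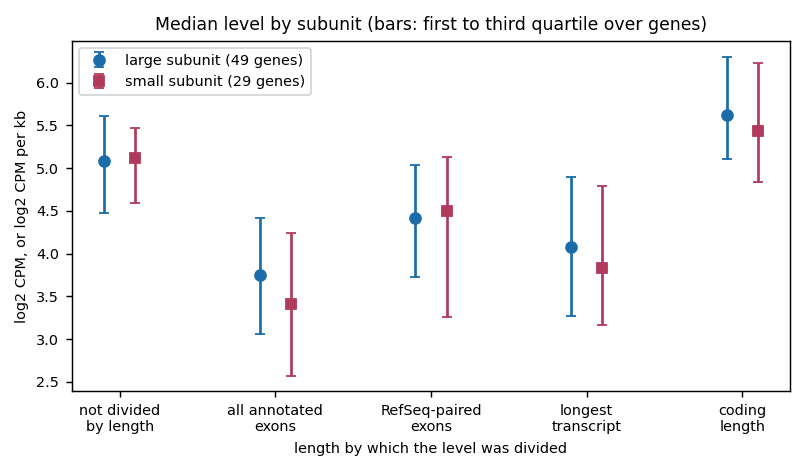
Median level of the large subunit genes (circles, 49 genes) and small subunit genes (squares, 29 genes) in log2 CPM or log2 CPM per kb, for 5 choices of length, with bars from the first to the third quartile over genes. The bars overlap for every choice, and the order of the medians turns between the choices.

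In the large subunit, the 6 highest genes per kb of exon were Mrpl53 (5.42 log2 CPM per kb), Mrpl2 (5.28), Mrpl18 (5.13), Mrpl10 (5.05), Mrpl9 (5.00) and Mrpl49 (4.89). Mrpl53 and Mrpl49 occur only in mitochondria, and the other 4 have bacterial counterparts. The value of Mrpl53 is uncertain, because 88.0% of its exon bases are shared on the same strand with other annotated genes, among them the gene model Gm42688. Only 1 of these 6 genes was also among the 6 highest per kb of RefSeq-paired exons, where Mrpl42 (6.71 log2 CPM per kb), Mrpl33 (6.58) and Mrpl13 (6.45) led the large subunit, genes named here after their values were seen.

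The 6 lowest large subunit genes per kb of exon were Mrpl36 (-2.74 log2 CPM per kb), Mrpl23 (1.36), Mrpl48 (1.78), Mrpl57 (1.83), Mrpl17 (2.01) and Mrpl52 (2.32). Of these, 4 were also among the 6 lowest per kb of RefSeq-paired exons. Mrpl23 was not, with 4.18 log2 CPM per kb there, since its annotated exons cover 4883 bp and its RefSeq-paired exons 692 bp. Mrpl23 and Mrpl48 each have a near-identical pseudogene copy (100% identical over 421 bp and 98.1% over 633 bp), which limits both values. Mrpl17 has the longest RefSeq-paired exon set of the 78 genes, 7300 bp, and per kb of coding length it had 5.86 log2 CPM per kb, rank 31 of the 78.

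Mrpl36, the mitochondrial counterpart of bacterial L36, was the exception in the module. Its mean of -2.53 log2 CPM, or 0.173 CPM, corresponds to about 2.9 reads per library, within the limit of 3 counts used here. It lay above the -5.30 log2 CPM of genes without reads, but so few reads leave its level imprecise. It ranked last of the 78 under every length used. The gene lies at chr13:73328513-73332178 on the plus strand of GRCm38. Its outermost annotated start overlaps by 29 bp that of Ndufs6, a complex I subunit on the opposite strand, which had 30.9 CPM. The RefSeq promoter window searched for motifs below lies further inside the gene, at chr13:73330759-73331058. No near-identical annotated copy of the Mrpl36 coding sequence was found. Whether the low count arose in the cells or in the counting of reads was not tested.

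In the small subunit, the 6 highest genes per kb of exon were Mrps21 (6.05 log2 CPM per kb), Mrps23 (5.48), Mrps18c (5.16), Mrps6 (4.85), Mrps33 (4.72) and Mrps7 (4.42). Mrps21, at chr3:95862634-95871519 on the minus strand of GRCm38, has the shortest coding length of the 78 genes by the longest annotated coding sequence. It was first of the 78 per kb of exon and second per kb of RefSeq-paired exons. Of these 6 genes, 5 were also among the 6 highest small subunit genes per kb of RefSeq-paired exons and 5 per kb of coding length, so the top of the small subunit depended less on the choice than that of the large subunit. Mrps6 shares 19.9% of its exon bases on the same strand with Slc5a3 and Gm49711. Mrps21 and Mrps33 each have a pseudogene copy (97.3% identical over 261 bp and 99.7% over 318 bp). Such overlaps and copies limit the values of Mrps6, Mrps21 and Mrps33.

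The 6 lowest small subunit genes per kb of exon were Mrps17 (0.38 log2 CPM per kb), Mrps16 (1.14), Mrps18b (2.0), Mrps35 (2.01), Mrps10 (2.24) and Mrps18a (2.44). Mrps16 and Mrps17 both have bacterial counterparts and rested on about 124 and 166 reads per library. Mrps16 and Mrps10 have pseudogene copies (for instance 96.3% identical over 402 bp and 97.9% over 573 bp), which limits both values. Mrps16 was next to last of the 78 per kb of RefSeq-paired exons, at 1.14 log2 CPM per kb, where Mrps17 had 2.81 log2 CPM per kb. Mrps10, in contrast, had 5.01 log2 CPM per kb of RefSeq-paired exons and rank 23 of the 78.

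Mrps18a, Mrps18b and Mrps18c are 3 paralogs of bacterial S18 that occupy different places. Mrps18c, the one at the bacterial position in the small subunit, was the highest, at 5.16 log2 CPM per kb of exon. Mrps18a, in the large subunit, had 2.44 and Mrps18b, at a mitochondrial site of the small subunit, had 2.0 log2 CPM per kb of exon. The order was the same per kb of RefSeq-paired exons, with 5.91, 4.50 and 2.95 log2 CPM per kb. Mrps18b shares 30.5% of its exon bases with a gene on the opposite strand and has a pseudogene copy, and Mrps18c shares 23.2% on the same strand with the gene model Gm43511, which limits both values.

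Genes of the functional sites of the large subunit, taken from lists of the stalk, the peptidyl transferase centre, the tunnel exit and the central protuberance, ran from 1.36 (Mrpl23) to 5.28 (Mrpl2) log2 CPM per kb of exon. At the stalk, which recruits translation factors, Mrpl10 had 5.05, Mrpl12 4.52 and Mrpl11 2.92 log2 CPM per kb of exon. Around the peptidyl transferase centre, Mrpl2 had 5.28, Mrpl27 4.65, Mrpl3 3.33, Mrpl16 3.09 and Mrpl4 3.08 log2 CPM per kb of exon. Per kb of RefSeq-paired exons, Mrpl16 (4.53 log2 CPM per kb) and Mrpl4 (4.10) were above Mrpl3 (3.68), with Mrpl2 (5.46) and Mrpl27 (5.03) still the highest. All 5 of these genes had at least 16 CPM.

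The 8 genes around the exit of the peptide tunnel had a median of 4.14 log2 CPM per kb of exon. Mrpl45, which holds the ribosome at the inner membrane, was the highest on this scale with 4.80 log2 CPM per kb, followed by Mrpl39 (4.52), Mrpl22 (4.29), Mrpl24 (4.19), Mrpl44 (4.10), Mrpl47 (2.63), Mrpl17 (2.01) and Mrpl23 (1.36). Per kb of RefSeq-paired exons, Mrpl24 (5.07 log2 CPM per kb) passed Mrpl45 (4.90), Mrpl22 (4.73) passed Mrpl39 (4.67), Mrpl44 had 4.30, and Mrpl23, at 4.18, was above Mrpl47 (3.03) and Mrpl17 (2.07).

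The 8 genes of the central protuberance, at the top of the large subunit, had a median of 3.69 log2 CPM per kb of exon. They ran from Mrpl18 (5.13 log2 CPM per kb) over Mrpl38 and Mrpl40 (both 4.06), Mrpl55 (3.94), Mrpl46 (3.45), Mrpl58 (2.91), a member of the peptide release factor family, and Mrpl52 (2.32) to Mrpl48 (1.78). Per kb of RefSeq-paired exons, only Mrpl52 (3.72 log2 CPM per kb) and Mrpl58 (3.27) changed places.

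For decoding and the head of the small subunit, 6 genes had a median of 3.27 log2 CPM per kb of exon. Mrps7 had 4.42, Mrps24 4.23, Mrps12 3.29, Mrps9 3.26, Mrps14 3.15 and Mrps10 2.24 log2 CPM per kb. Per kb of RefSeq-paired exons the median was 4.64 log2 CPM per kb, and the order became Mrps9 (5.28 log2 CPM per kb), Mrps10 (5.01), Mrps24 (4.79), Mrps7 (4.50), Mrps12 (3.44) and Mrps14 (3.26). Mrps12, the counterpart of the bacterial decoding protein S12, rested on about 199 reads per library and was the only 1 of the 6 under 16 CPM.

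Both the lowest and the highest gene per kb of exon, Mrpl36 and Mrps21, have a bacterial counterpart. The 46 genes with a bacterial counterpart had a median of 3.57 log2 CPM per kb of exon, and the 29 genes listed as found only in mitochondria had 3.72. Mrps18a, Mrps30 and Mrps36, whose symbol and structure differ, were in neither list. The difference of -0.15 log2 turned to 0.21 log2 per kb of RefSeq-paired exons, and the interquartile ranges per kb of exon were 1.35 and 1.37 log2.

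Other components of mitochondrial translation were compared on the same scale. Proteins of the same ribosome with other symbols had 4.84 (Ptcd3), 4.80 (Chchd1), 3.91 (Dap3) and 3.61 (Aurkaip1) log2 CPM per kb of exon for the small subunit and 2.09 (Gadd45gip1) for the large. The median of 14 mitochondrial translation factors was 2.70 log2 CPM per kb of exon, and that of 22 assembly factors was 2.28. Among the factors, Gfm1 and Tufm, which drive elongation, had 4.91 and 4.82 log2 CPM per kb of exon. Per kb of RefSeq-paired exons, Gfm1 had 5.03 and Tufm 5.09 log2 CPM per kb. The mitochondrial rRNA genes mt-Rnr1 and mt-Rnr2, which the rule did not include, had 9.15 and 9.41 log2 CPM, levels that depend on how rRNA was treated in the library preparation.

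The 79 cytosolic ribosomal protein genes had a median of 7.31 log2 CPM per kb of exon, which puts the mitochondrial genes 3.69 log2 lower. Their quartiles, 6.45 and 8.29 log2 CPM per kb, lay above the highest mitochondrial ribosomal protein gene, Mrps21 at 6.05. Complex I subunit genes were taken by symbol alone, as the 36 symbols of Nduf followed by a, b, c, s or v and a number. They had a median of 4.97 log2 CPM per kb of exon, and the mitochondrial ribosomal genes lay 1.35 log2 lower. Without division by length this difference was -0.35 log2. Both differences kept their sign for the 5 choices of length.

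**Figure D3:**
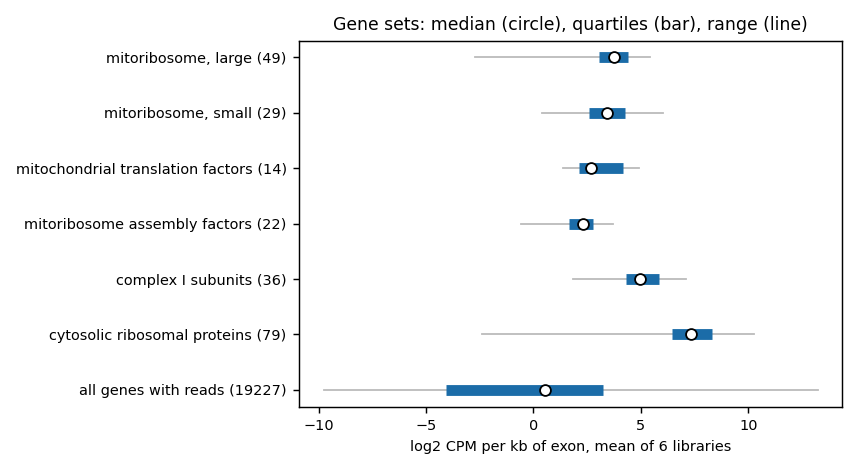
Levels of gene sets in log2 CPM per kb of exon, each gene a mean of 6 libraries, with the median (circle), quartiles (bar), range (line) and the number of genes with a value in brackets. The quartiles of both subunits of the mitochondrial ribosome lie under those of the cytosolic ribosomal proteins.

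Many genes of the module share a start region with a neighbour that is transcribed away from them. With starts at most 1000 bp apart, or overlapping by at most 500 bp, 26 of the 78 genes (33.3%) had such a divergent protein-coding neighbour with reads, against 1951 of 17508 coding genes with reads (11.1%) and 1251 of 7616 coding genes with at least 16 CPM (16.4%). Starts here are the outermost annotated starts of the genes, which can differ from the RefSeq starts of the promoter windows below. No test was made of these shares. They comprised 18 large and 8 small subunit genes, and in 16 of the 26 cases the starts lay within 200 bp without overlap. Mrps11 and Mrpl46, of different subunits, are each other's neighbour, with starts that overlap by 412 bp. The stretches between the starts of 5 pairs are shown, because they are all the sequence that lies between the genes of each pair. They were read 5′ to 3′ along the strand of the first gene from the RefSeq promoter table (GRCm38.p6), and capitals mark only the ETS, NRF1 and YY1 letters described below, not those of Sp1 or TATA.

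Mrps18c and Helq, chr5:100798599-100798626, plus strand: gtgaCTTCCGGcccgggaagcgcgggaa

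Mrpl49 and Fau, chr19:6057786-6057843, minus strand: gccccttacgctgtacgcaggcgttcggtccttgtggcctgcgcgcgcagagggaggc

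Mrps27 and Ptcd2, chr13:99344706-99344785, plus strand: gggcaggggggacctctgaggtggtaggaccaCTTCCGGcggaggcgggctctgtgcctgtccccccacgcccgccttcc

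Mrpl10 and Lrrc46, chr11:97041408-97041559, plus strand: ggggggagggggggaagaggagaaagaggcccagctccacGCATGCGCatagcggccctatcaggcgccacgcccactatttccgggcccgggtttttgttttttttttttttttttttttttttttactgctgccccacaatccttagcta

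Mrps12 and Sars2, chr7:28741821-28741991, minus strand: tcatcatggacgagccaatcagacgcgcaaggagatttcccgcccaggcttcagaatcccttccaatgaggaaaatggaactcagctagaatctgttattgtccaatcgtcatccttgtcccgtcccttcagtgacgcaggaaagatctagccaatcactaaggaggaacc

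Of the neighbours shown, Fau encodes a cytosolic ribosomal protein, Sars2 the mitochondrial seryl-tRNA synthetase and Ptcd2 a mitochondrial RNA-binding protein. Levels of the neighbours differed. Per kb of exon, the ribosomal gene was the higher in 16 of the 26 cases, and in 13 of the 26 without division by length. Both counts include Mrps11 above Mrpl46. Mrpl10 had 5.05 log2 CPM per kb of exon and Lrrc46 0.57, and Mrps12 had 3.29 against 1.07 for Sars2. Fau, at 6.40 log2 CPM per kb of exon, was above Mrpl49 at 4.89, and Ptcd2, at 4.49, was above Mrps27 at 4.02. Mrps18c had 5.16 log2 CPM per kb of exon and Helq 2.80. The widest gap in the other direction was that between Mrpl36 and Ndufs6 (5.10 log2 CPM per kb of exon). The pairs were chosen after their values were seen.

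**Figure D4:**
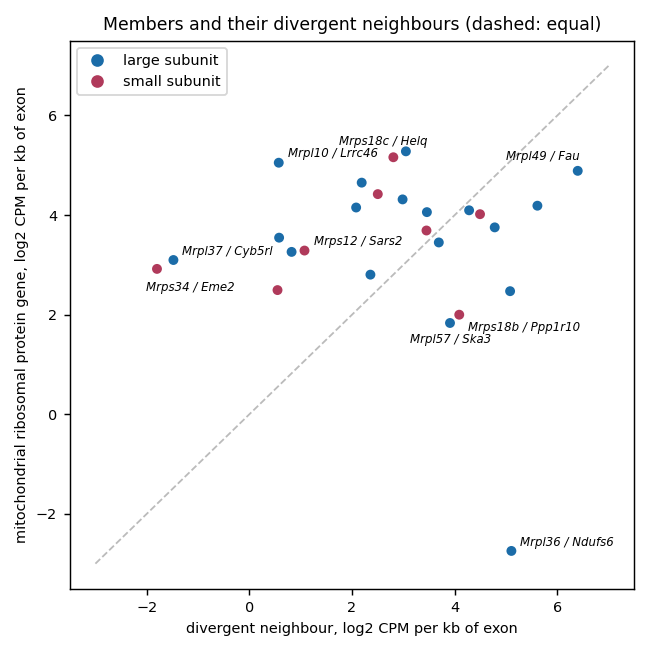
Levels of the 26 genes with a divergent protein-coding neighbour (vertical axis) against the neighbour (horizontal axis), both in log2 CPM per kb of exon, each point a mean of 6 libraries. The dashed line marks equal levels, and 16 of the 26 points lie above it, with Mrpl36 far below.

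Promoter windows of 300 bp, from 250 bp before to 50 bp after the start, were found for 69 of the 78 genes, as 75 windows. The letters of 5 motifs were searched on both strands. These were CCGGAAG for ETS factors, GCGCATGC for the core of NRF1, a regulator of nuclear genes for mitochondria, AAGATGGCG for YY1, GGGCGG for Sp1 and TATAAA for the TATA box. The ETS and YY1 letters can overlap by AAG. ETS letters were found in 26 of the 75 windows (34.7%), against 20.8% of the windows of genes with at least 16 CPM and 11.4% of all windows of the table. For NRF1 the shares were 10.7%, 6.18% and 3.52%, and for YY1 they were 10.7%, 3.69% and 1.82%. Sp1 letters, at 52.0%, lay between 66.8% of the windows of genes with at least 16 CPM and 45.9% of all windows. TATA letters were found in 6.67% of the windows, against 6.30% and 12.4%.

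By subunit, ETS letters were in 15 of 48 large and 11 of 27 small subunit windows, and NRF1 letters in 7 of 48 and 1 of 27. Of 31 ETS matches, 28 began from 100 bp before the start onward. ETS, NRF1 or YY1 letters occurred in 36 of the 69 genes and none of these in 33. The 26 genes with ETS letters had a median of 3.37 log2 CPM per kb of exon and the 43 without had 3.94, so their presence did not go with higher levels. A match is a description of letters, not of a bound site.

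**Figure D5:**
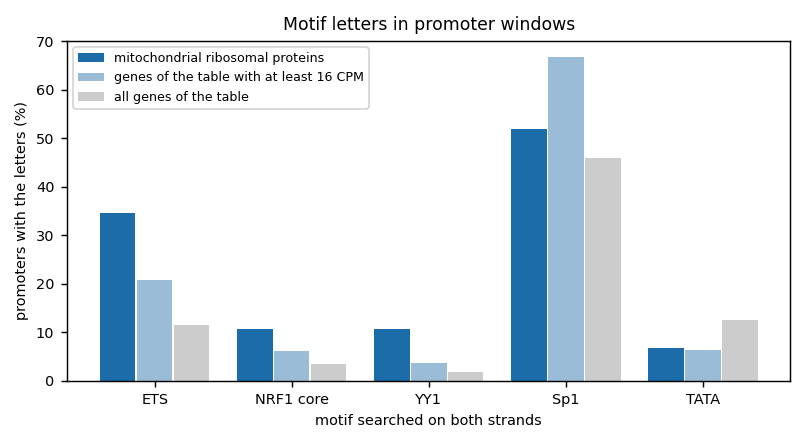
Share of promoter windows (300 bp) that hold the letters of each motif on either strand, for the mitochondrial ribosomal protein genes (75 windows), genes of the table with at least 16 CPM (8044 windows) and all genes of the table (22271 windows). The share with ETS letters is 34.7%, 20.8% and 11.4%.

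Matches with their surroundings are shown for 3 large subunit genes and 1 small subunit gene, because they show the ETS letters alone and, in Mrpl22, beside NRF1 letters. All are from the same RefSeq table, along the strand of the gene, and lie outside annotated exons, with ETS or NRF1 letters in capitals.

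Mrpl34, chr8:71464864-71464923, plus strand: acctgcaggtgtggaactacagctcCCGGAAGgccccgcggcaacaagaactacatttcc

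Mrpl43, chr19:45006464-45006523, minus strand: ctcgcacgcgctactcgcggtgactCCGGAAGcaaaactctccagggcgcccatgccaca

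Mrpl22, chr11:58171586-58171645, plus strand: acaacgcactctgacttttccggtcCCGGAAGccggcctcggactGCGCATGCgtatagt

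Mrps22, chr9:98601680-98601715, minus strand: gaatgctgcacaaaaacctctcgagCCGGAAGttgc

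In Mrpl22 the ETS and the NRF1 letters lie in the same short stretch, and 4 genes of the module held both. Mrpl22 had 4.29 log2 CPM per kb of exon, Mrpl34 4.42, Mrpl43 4.34 and Mrps22 3.41.

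Reads of some members could be shared with other genes. For 18 of the 78 genes, over 10% of the exon bases overlap an annotated gene, as in Mrps34 (37.0% on the same and 63.4% on the opposite strand, with Mapk8ip3 and Nme3 among the genes that overlap it) and Mrps25 (69.8%, with Nr2c2). A pseudogene at least 95% identical over at least 100 bp of the coding sequence was annotated for 17 genes, 9 of the large and 8 of the small subunit, with 22 such copies in all. Mrps36 had 4 of them. The 17 genes had a median of 3.26 log2 CPM per kb of exon and the other 61 had 3.70. How much of this difference the copies account for was not tested. Among the pseudogenes of the table named after these genes, Gm15760 is named for Mrps18b. It had 1.39 log2 CPM per kb of exon beside 2.0 log2 CPM per kb for Mrps18b itself. Without division by length, Gm15760 had 3.09 and Mrps18b 3.06 log2 CPM. Gm15760 was not among the copies found at 95% identity. The copy of Mrps18b found there was Gm13552 (99.8% identical over 414 bp), which had 0.12 log2 CPM.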

How the data were processed

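RNA of B16F10 cells (3 OLO and 3 OZO cultures, 6 h) was made into NEBNext Ultra II Directional libraries. According to the submitters' processing notes and the methods, the authors aligned reads to mm10 with HISAT2 (2.1.0), counted them with featureCounts (2.1.1) and compared the groups with limma (3.58.1). StringTie (1.3.4d) is also named, and strand use in counting is not given in the sources used here. The authors deposited 1 table of 27179 genes, of which the average expression, a log2 CPM mean over the 6 libraries, was used. The deposited log2 fold changes, moderated statistics, p-values, adjusted p-values and log odds of OZO against OLO are the authors' own comparison and were not used, so the planned tests of the treatment were not run.

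The library size was computed from the value shared by genes without reads, through the 0.5 reads that voom adds, with 3 counts as the limit for a level of useful precision. Such limits cover counting error only. Depth of single libraries is unknown. Lengths, positions and overlaps come from GENCODE release M21 (GRCm38), in which 23882 of 24126 Ensembl identifiers were found. Promoter windows come from RefSeq (GRCm38.p6), and copies were searched with BLAST 2.17.0. Python 3.11.15, numpy 2.4.6, pandas 2.3.3 and matplotlib 3.10.9 were used. The recovery of library size and levels was tested on simulated counts, turned into levels by the same formula and without scaling of libraries. It checks the calculation only, not the depth of these libraries.

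Members and gene lists were chosen with earlier results of these data known. Named were the 6 highest and 6 lowest genes per kb of exon in each subunit, the Mrps18 paralogs, members of the site lists, Mrps30, Mrps36 and ribosomal proteins with other symbols. Others were named after their values were seen. Protein sequences were not used here. Alternatives were other lengths, subunits by structure, a minimum of 16 CPM and leaving out genes with pseudogenes. RefSeq-paired exons, leaving out Mrpl36, leaving out genes with near-identical copies and, for the comparison with other gene sets, the longest transcript and coding length were added after the data had been seen.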

Additional observations from a re-analysis of the deposited data

How the results depend on the processing

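No paired analysis was possible because the value used is 1 mean over all libraries, and for the same reason a replicate block, another tool, another filter and leaving out replicates were not run for OZO against OLO. The median of the large minus that of the small subunit, 0.35 log2 CPM per kb of exon, turned to -0.034 log2 without division by length and to -0.079 log2 per kb of RefSeq-paired exons. It was 0.19 log2 per kb of coding length and 0.22 log2 per kb of exon with subunits by structure. By structure, the order of the medians also turned without division by length and per kb of RefSeq-paired exons. By symbol, the difference stayed between 0.25 and 0.44 log2 for the longest transcript, with at least 16 CPM, without Mrpl36 and without genes that have pseudogenes. The median of genes with a bacterial counterpart minus that of mitochondrion-specific genes, -0.15 log2 per kb of exon, turned to 0.067 log2 without division by length, 0.20 log2 for the longest transcript, 0.37 log2 for coding length and 0.21 log2 for RefSeq-paired exons. Against cytosolic ribosomal proteins the difference of -3.69 log2 became -3.22 log2 without division by length, -4.00 log2 for the longest transcript, -3.81 log2 for coding length and -4.08 log2 for RefSeq-paired exons. Against complex I subunits it moved from -1.35 log2 to -0.35 log2 without division by length and -1.07 log2 for coding length. The only change between these values is the length that divides the level or the genes compared. Mean depth limits only Mrpl36, the single gene of the module within the limit of 3 counts.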

Other observations

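The pseudogenes of the module that the table lists differed in level. Gm15760, named for Mrps18b, had 3.09 log2 CPM, and Gm6578 and Gm16523, named for Mrpl32 and Mrpl40, had -3.35 and -3.99 log2 CPM. Gm6578 and Gm16523 rested on about 1.4 and 0.74 reads per library, within the limit of 3 counts. Among the assembly factors, Gtpbp6 had -0.58 log2 CPM per kb of exon and 0.23 log2 CPM per kb of RefSeq-paired exons, the lowest of the 22 on both scales.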
